A study of Capra hircus with 9 samples.

Results

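The translation factor genes of the goat mammary gland comprised the genes for the initiation factors (EIF symbols), the elongation factors (EEF symbols), the release factor ETF1 and the cytoplasmic poly(A)-binding proteins PABPC1 and PABPC4. They were taken from the expression table by a rule on symbols that leaves out the eIF2 kinases and the eIF4E-binding proteins. This gave 57 of the 23499 genes in the table, and 55 of them passed the filter on low values and were among the 14701 genes tested. EIF4E1B, the oocyte form of the cap-binding protein, was listed at 0 in every library, and EEF1A2 did not pass the filter.

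Mammary tissue came from 9 healthy goats of the Laoshan breed, a dairy breed of China, all of the same parity and kept on the same farm. The groups were late lactation (LL, 240 d postpartum), the dry period (DP, 300 d postpartum) and late gestation (LG, 140 d after mating), with 3 goats and 1 library each. The goats were about 4 years old, no treatment is named for any of them, and each stage was sampled in different animals. The comparisons ask how the transcripts of the protein synthesis machinery differ between a gland that secretes milk, a gland in the dry period and a gland close to parturition.

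Translation starts when eIF2 brings the initiator tRNA to the small ribosomal subunit, eIF4F binds the mRNA cap, eIF3 holds the subunit and the mRNA together, and eIF1 and eIF5 control the choice of the start codon. eEF1A and its exchange factors then deliver each aminoacyl-tRNA, eEF2 moves the ribosome along, and eRF1 (ETF1) ends the chain. The mRNAs of the elongation factors, of some initiation factors and of the ribosomal proteins begin with a terminal oligopyrimidine (TOP) tract, through which growth signals adjust their translation and stability together, and in the mammary gland these mRNAs serve both the building of the secretory epithelium and the synthesis of milk protein.

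Expression is given as scaled FPKM, the FPKM of a library divided by its scaling factor (LL 0.498 to 0.605, DP 1.44 to 1.53, LG 1.198 to 1.31). Log2 fold changes are differences of mean log2(scaled FPKM + 1) and understate changes of weakly expressed genes. A gene was called higher or lower where limma gave a Benjamini-Hochberg adjusted p under 0.05 and the log2 fold change was 1 or more in size. The summed FPKM ran from 940676 to 1157015 in LL, from 601250.2 to 616268 in DP and from 733277 to 768157 in LG. Without the scaling, the median log2 fold change of all genes tested was -0.18 for LG against DP, 0.93 for LG against LL and 1.09 for DP against LL. FPKM carry no read count, so the depth behind a value is unknown. In bulk tissue, fewer cells of a type and less RNA per cell cannot be told apart.

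Markers of the labelled tissue were present in every library, and sums of cell type markers differed between the stages. Luminal epithelial markers (6 genes, none of them under 0.5 FPKM throughout a stage) summed to 819 to 1106 scaled FPKM in LL, against 269 to 522 in DP and 733 to 891 in LG. The secretory markers CSN2, CSN1S1 and LALBA summed to 276256 to 446771 in LL, against 30.1 to 45.9 in DP and 5149 to 6885 in LG. Leukocyte markers (7 genes) summed to 43.1 to 54.4 in LL, against 91.5 to 151 in DP and 36.6 to 52.8 in LG, and fibroblast markers (6 genes) to 212 to 324, 502 to 2392 and 521 to 954. Myoepithelial markers (5 genes) summed to 164 to 224, 131 to 441 and 212 to 289 in LL, DP and LG, endothelial markers (4 genes) to 77.9 to 102, 86.2 to 109 and 48.6 to 65.7, and adipocyte markers (5 genes, of which 3 were under 0.5 FPKM in every LL and every LG library) to 259 to 396, 3.69 to 21.4 and 20.8 to 23.8. The adipocyte sum of LL was carried by CIDEA (255 to 393 in LL, against 1.03 to 2.61 in DP and 19.1 to 22.3 in LG), which lactating mammary epithelium also expresses, while ADIPOQ was at 0.145 to 0.462, 0.548 to 12.6 and 0.167 to 0.332. In DP against LL, 4 of the 7 leukocyte and 5 of the 6 fibroblast markers were called higher (13.8% of all genes tested). Called lower there were 1 of the 6 luminal markers (ELF5), the 3 secretory markers and CIDEA (8.79% of all genes). In LG against DP, ELF5, the 3 secretory markers, OXTR and CIDEA were called higher (6.37%). There 4 leukocyte markers, 2 fibroblast markers and TEK were called lower (6.88%). In LG against LL, COL1A1, COL3A1 and OXTR were called higher (10.7%), and CD14, CD68, CIDEA and the 3 secretory markers lower (6.61%). The part of these cell types in the results below was not tested.

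After median-ratio scaling, the translation factor genes were at their lowest in DP and, for the elongation factors above all, at their highest in LG, whereas their median log2 fold change in DP against LL was 0.030 after quantile normalization and 0.92 without scaling. Summed over all 57 genes, scaled FPKM was 4918 ± 350.4 in LL, against 3142 ± 109 in DP and 7097 ± 115 in LG (SD, n = 3 in each), and the stages did not overlap. The 6 eEF1 and eEF2 genes summed to 2793 ± 242 in LL, against 1686 ± 72.6 in DP and 4860 ± 203 in LG (SD, n = 3). The 39 initiation factor genes summed to 1869 ± 125 in LL, against 1274 ± 43.0 in DP and 1908 ± 126 in LG (SD, n = 3). LL and LG thus overlapped in the initiation sum (1738 to 1986 against 1783 to 2034) but not in the elongation sum (2644 to 3073 against 4628 to 5008). Taken gene by gene, 30 of the 55 tested members had their highest scaled mean in LG, 19 in LL and 6 in DP. As a share of the summed FPKM, the members held 0.199% to 0.311% in LL, against 0.750% to 0.769% in DP and 1.16% to 1.2% in LG, an order in which LL and not DP is the lowest.

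The ratio of the eEF1 and eEF2 sum to the initiation factor sum within a library does not depend on the scaling between libraries. It was 1.52, 1.55 and 1.42 in LL, against 1.35, 1.36 and 1.26 in DP and 2.63, 2.77 and 2.28 in LG. The 3 LG libraries were therefore all above the LL libraries, and these all above the DP libraries. Without EEF1A1 the ratio was 0.667 to 0.732 in LL, against 0.503 to 0.548 in DP and 0.929 to 1.25 in LG, and without the members linked to a neighbour it was 1.31 to 1.42, 1.16 to 1.25 and 2.17 to 2.65. The ratio is an added measure, chosen with the values known, and is given without a test.

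Between DP and LL, 2 of the 55 tested members were called higher and 5 lower, 3.64% and 9.09% of them, against 13.8% and 8.79% of all genes tested. With the adjusted p alone, 5 were higher and 25 lower, against 28.2% and 28.6% of all genes. The median log2 fold change of the members was -0.38, with 14 values above 0 and 41 below, beside 0.0041 over all genes. This median depends on the scaling, since it was 0.030 after quantile normalization and, without scaling, lay 0.17 below the median of all genes. Without DP replicate 3, 11 members were called in place of 7.

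LG against LL gave 2 members called higher and 3 lower, 3.64% and 5.45% of the 55, against 10.7% and 6.61% of all genes tested. With the adjusted p alone, 15 were higher and 6 lower, against 25.6% and 24.6%. The median log2 fold change of the members was 0.14, beside 0.019 over all genes. After quantile normalization 8 members were called higher and 1 lower, with a median of 0.26. Without scaling 36 were called higher and 0 lower, with a median 0.19 above that of all genes, which was itself 0.93. The share of all genes called was not computed in either setting, so these counts cannot be set against it.

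LG against DP gave 13 members called higher and 2 lower, the largest number of calls under median-ratio scaling, whereas LG against LL gave the largest number after quantile normalization and without scaling. That is 23.6% and 3.64% of the 55 tested members, against 6.37% and 6.88% of all genes tested. With the adjusted p alone, 22 were higher and 3 lower, against 18.4% and 16.4% of all genes. The median log2 fold change was 0.41, beside 0.0083 over all genes, with 45 members above 0, and it was 0.22 without LG replicate 3. After quantile normalization 5 members were called higher and 2 lower, with a median of 0.20. For quantile normalization and for no scaling the share of all genes called was not computed. Leaving out 5 members whose values follow those of a neighbouring gene (EIF3D, EIF4G1, EIF2B4, EEF1D and EEF1G) left 10 called higher and 2 lower. The 3 comparisons share their libraries in pairs and are not independent of each other.

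**Figure D1:**
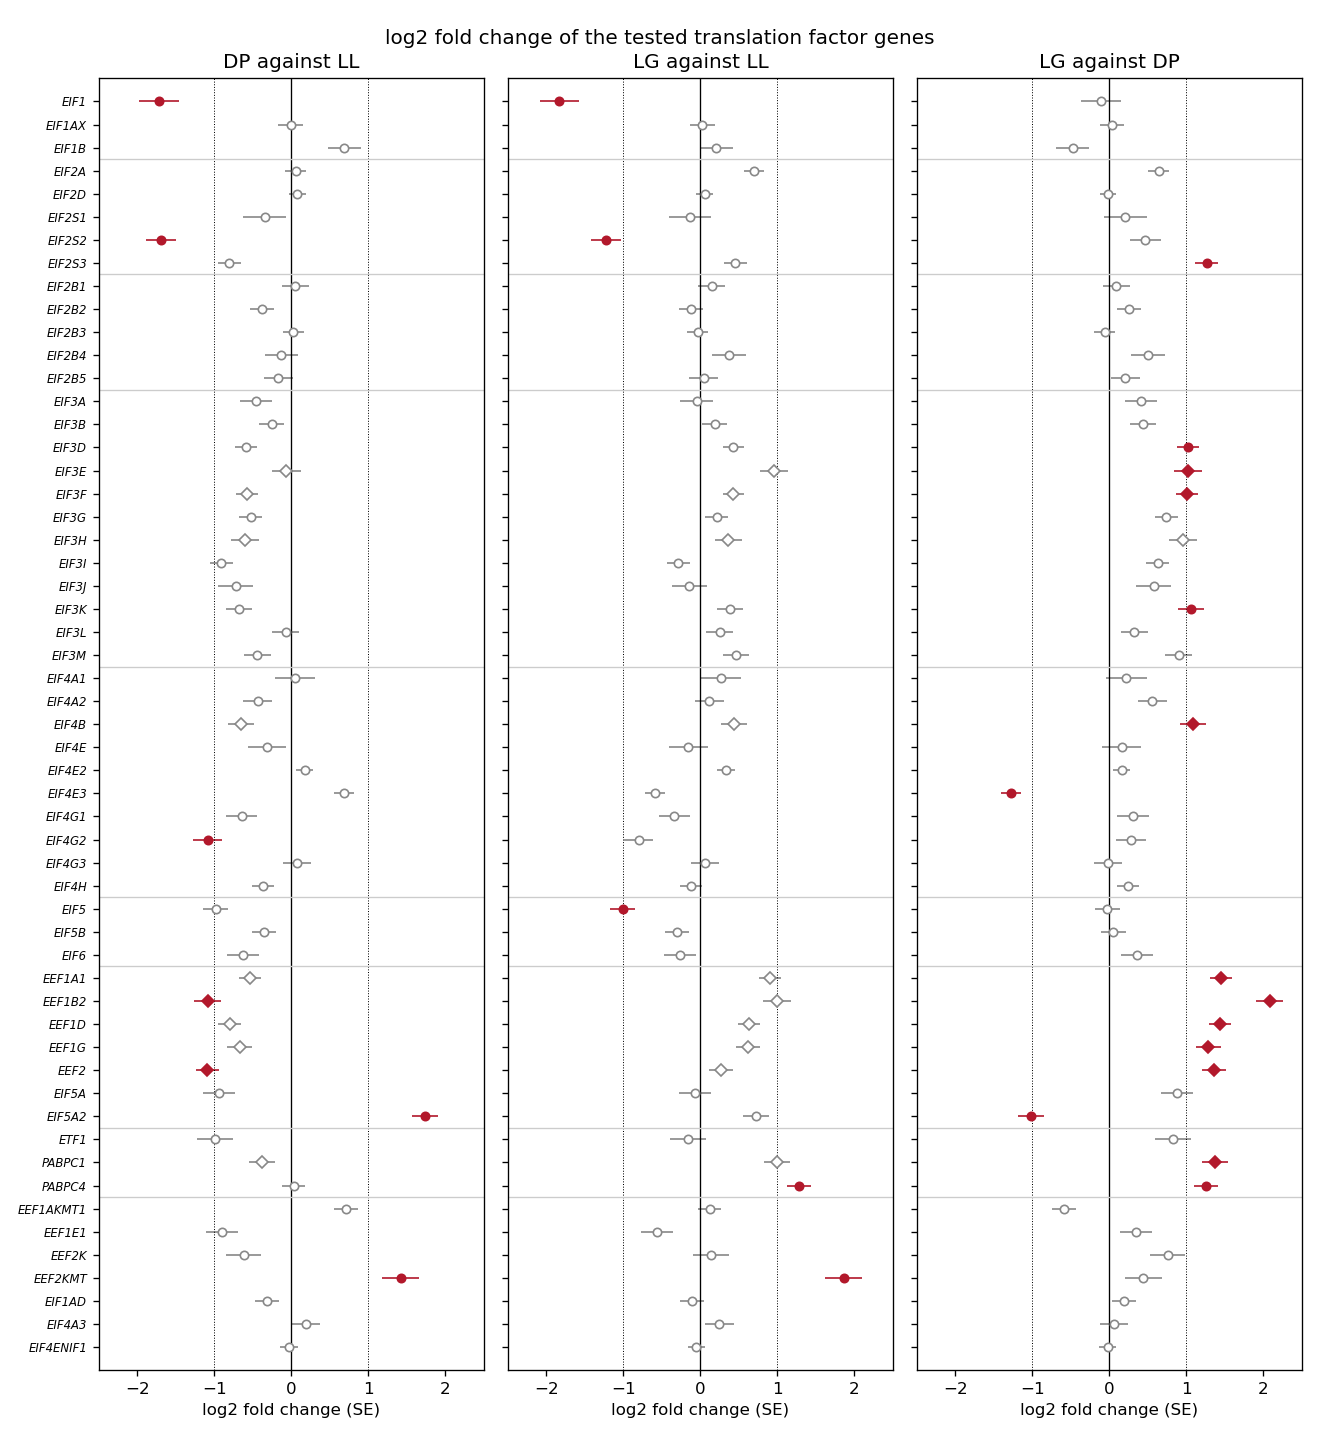
Log2 fold change (horizontal axis, log2(scaled FPKM + 1) scale, bars are the SE from limma) of the 55 tested members in the 3 comparisons, ordered by role with grey lines between roles. Diamonds are members of the TOP list, filled red symbols are members called, and dotted lines mark -1 and 1; most of the red symbols, 15 in all, are in the LG against DP panel, where 13 lie to the right. EEF1A1 is below 0 there after quantile normalization (-0.18).

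Among the elongation factors, EEF1A1 (gene ID 100860780, chromosome 9, 179927 to 186462) encodes eEF1A, the carrier of aminoacyl-tRNA. It had the highest FPKM of all members in each stage. Its scaled FPKM was 1372, 1632 and 1408 in LL, against 981, 1061 and 982 in DP and 2618, 2896 and 2739 in LG. All 3 LG libraries lay above every LL library, and these above every DP library. EEF1A1 rose between DP and LG (log2 fold change 1.45, SE 0.14, adjusted p = 0.000143), whereas after quantile normalization its log2 fold change was -0.18. By mean FPKM, EEF1A1 had rank 32 in the table in LL, against 6 in DP and 7 in LG, and quantile normalization gives the same value to genes of the same rank in different libraries. The log2 fold change was 0.91 (adjusted p = 0.000804) in LG against LL and -0.54 (adjusted p = 0.00997) in DP against LL, and after quantile normalization these were 2.65 and 2.83 and both called. EEF1A1 made up 29.2% to 30.8% of the summed FPKM of the members in LL, against 31.3% to 32.6% in DP and 36.2% to 41.1% in LG. Processed copies of EEF1A1 are common in mammalian genomes, and how reads shared with them were counted is not given in the sources used here.

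EEF1B2 (gene ID 102182354, chromosome 2, 41428132 to 41431033), a subunit of the complex that recharges eEF1A with GTP, had the largest difference of all members between LG and DP. Its scaled FPKM was 455, 499.5 and 435 in LL, against 239, 218 and 198 in DP and 1145, 853 and 805 in LG. The stages did not overlap, and LG replicate 1 stood above the other LG libraries. EEF1B2 rose between DP and LG (log2 fold change 2.08, SE 0.18, adjusted p = 7.28e-05) and was lower in DP than in LL (log2 fold change -1.08, SE 0.18, adjusted p = 0.000792), although the latter shrank to -0.23 after quantile normalization. In LG against LL the log2 fold change was 1.00 (adjusted p = 0.00159), just under the threshold of 1, and passed it without DP replicate 1, DP replicate 3, LG replicate 2, LG replicate 3 or LL replicate 2 (up to 1.09), and after quantile normalization (1.02).

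The other subunits of the exchange complex, EEF1D and EEF1G, followed the same order of stages under median-ratio scaling. EEF1D was at 151 to 161 scaled FPKM in LL, against 82.5 to 98.7 in DP and 226 to 257 in LG, and was called higher in LG than in DP (log2 fold change 1.43, SE 0.14, adjusted p = 0.000149). EEF1G was at 233 to 277 in LL, against 149.9 to 161 in DP and 336 to 448 in LG, and was likewise called (log2 fold change 1.29, SE 0.16, adjusted p = 0.000396). Neither gene overlapped between any pair of stages. After quantile normalization only EEF1D kept its call in LG against DP (1.11, against 0.80 for EEF1G), both were called higher in LG than in LL (1.13 and 1.02), and both were above 0 in DP against LL (0.023 and 0.22). Their values are not separate measurements, because FPKM of EEF1D differed from that of its neighbour NAPRT by only 1 to 1.5 in every library, and EEF1G from TUT1 by the same amounts.

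EEF2 (gene ID 102176034, chromosome 7, 90521523 to 90530393) encodes the translocase that moves the ribosome to the next codon, and was at 422, 505 and 429 scaled FPKM in LL, against 190.1, 227 and 217 in DP and 540.4, 569 and 522 in LG. DP was below both other stages without overlap, and LG was above LL, also without overlap (522 to 569 against 422 to 505). EEF2 was called lower in DP than in LL (log2 fold change -1.09, SE 0.15, adjusted p = 0.000302) and higher in LG than in DP (log2 fold change 1.36, SE 0.15, adjusted p = 0.000244), and both values shrank after quantile normalization, to -0.14 and 0.67. In LG against LL the log2 fold change was 0.27 (adjusted p = 0.166), and 0.53 (adjusted p = 0.026 in limma) after quantile normalization.

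**Figure D2:**
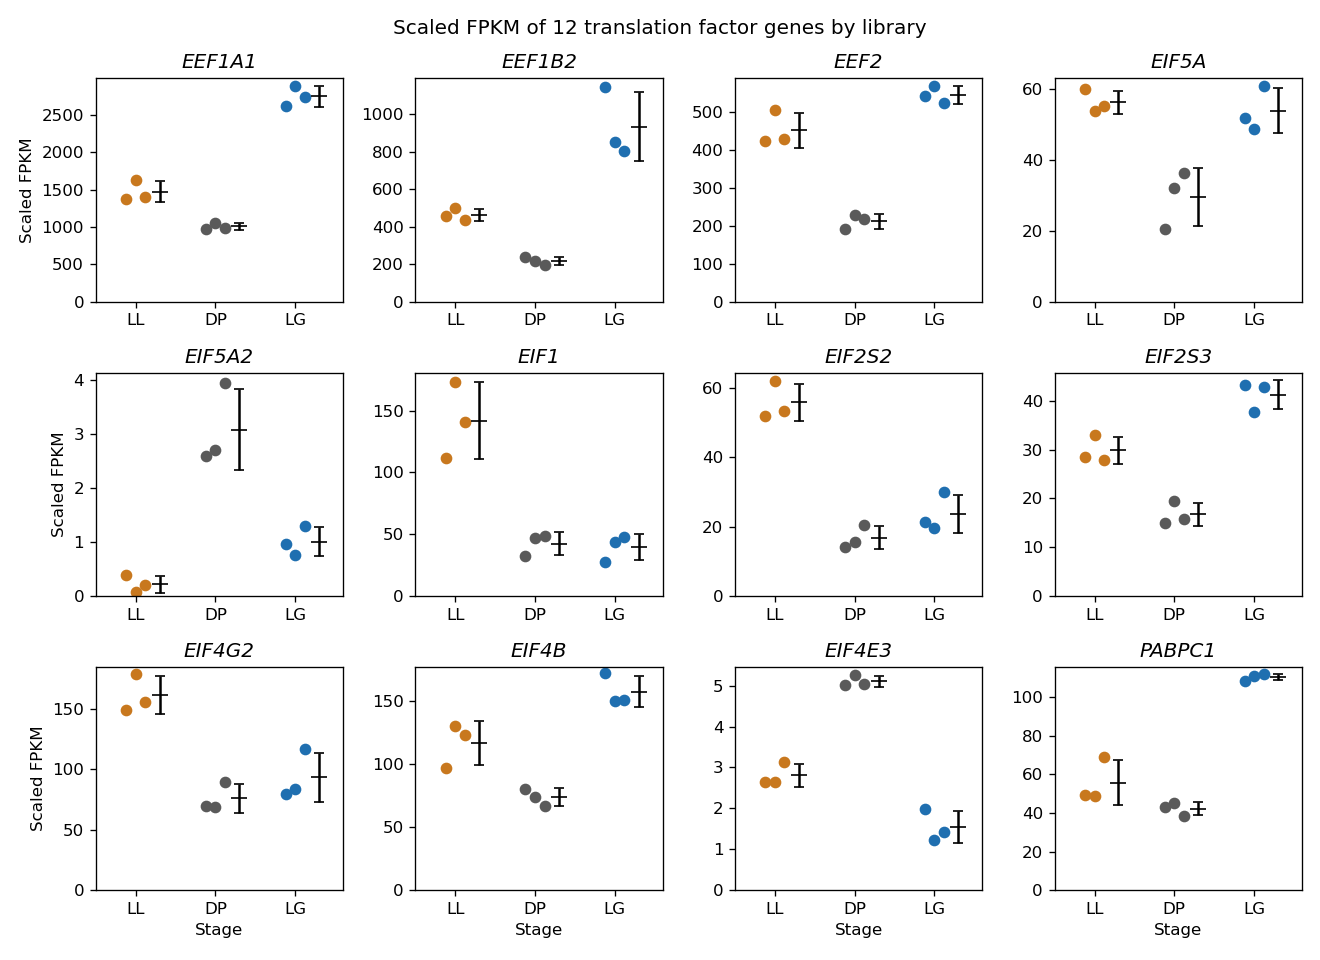
Scaled FPKM (vertical axes, each from 0) of 12 translation factor genes in the 3 libraries of LL, DP and LG (points), with the mean and SD of each stage beside them. The elongation factor genes EEF1A1, EEF1B2 and EEF2 are lowest in DP and highest in LG, EIF1 and EIF2S2 are highest in LL, and EIF5A2 and EIF4E3 are highest in DP; after quantile normalization the log2 fold change of EEF1A1 was 2.83 in DP against LL and -0.18 in LG against DP.

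EIF5A and its paralogue EIF5A2, whose products carry hypusine and help the ribosome past stalling sequences, had different orders of the stages. EIF5A was at 60.0, 53.8 and 55.1 scaled FPKM in LL, against 20.5, 32 and 36.3 in DP and 51.9, 48.7 and 61 in LG. It did not reach the fold threshold in DP against LL (-0.94, adjusted p = 0.0041), in LG against DP (0.87, adjusted p = 0.0102) or in LG against LL (-0.068, adjusted p = 0.808). Without DP replicate 3 it passed in DP against LL (-1.10) and in LG against DP (1.04), and without DP replicate 2 in DP against LL (-1.01). With 1 library left out its values ran from -1.10 to -0.70 in DP against LL and from 0.64 to 1.04 in LG against DP. After quantile normalization they were -0.37 (adjusted p = 0.157 in limma) and 0.65 (adjusted p = 0.0355). EIF5A2 (gene ID 102176731, chromosome 1, 96089557 to 96111990) was at 0.382, 0.0723 and 0.198 in LL, against 2.6, 2.7 and 3.94 in DP and 0.952, 0.762 and 1.29 in LG, so that every DP library was above every LG library and these above every LL library. EIF5A2 rose between LL and DP (log2 fold change 1.74, SE 0.17, adjusted p = 3.58e-05) and was lower in LG than in DP (log2 fold change -1.02, SE 0.17, adjusted p = 0.00172), a call that was lost without DP replicate 3, LG replicate 1 or LG replicate 2 (down to -0.86). In LG against LL the log2 fold change was 0.72 (adjusted p = 0.00649) with a pseudocount of 1 and 1.89 with 0.1.

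The ratio of EIF5A2 to EIF5A within a library was 0.00637, 0.00134 and 0.00360 in LL, against 0.126, 0.0843 and 0.109 in DP and 0.0184, 0.0156 and 0.0212 in LG. No pair of stages overlapped. The mean log2 ratio differed by 5.07 between DP and LL, by 2.54 between LG and LL and by -2.52 between LG and DP. In each case the two-sided exact permutation test gave p = 0.1, the smallest value that 3 against 3 libraries allow (adjusted p = 0.217 over 13 ratio tests). The size of the first difference rests on EIF5A2 values in LL of 0.04 to 0.19 FPKM, and it was 4.0 with 0.1 added to both genes.

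**Figure D3:**
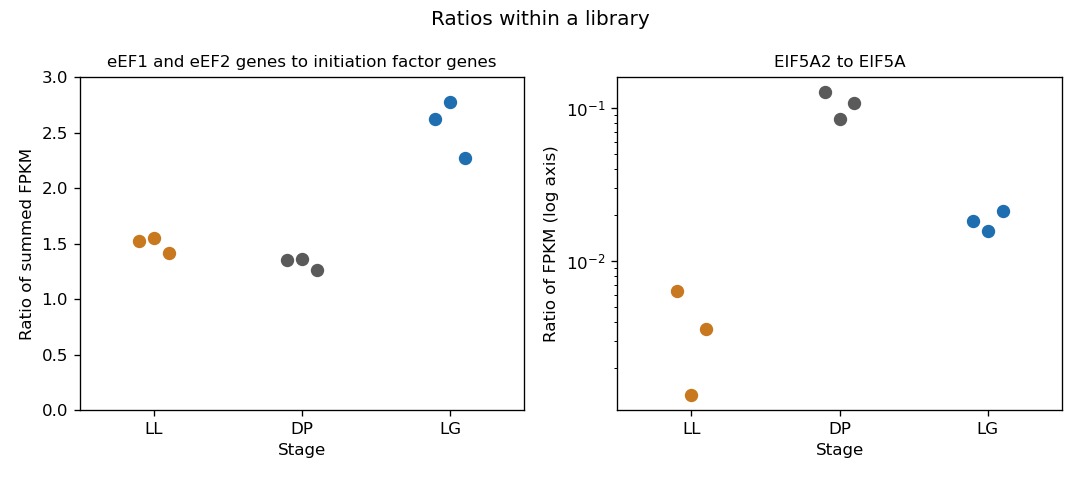
Ratios within a library by stage (points, 3 libraries each): left, the summed FPKM of the 6 eEF1 and eEF2 genes over that of the 39 initiation factor genes on an axis from 0; right, EIF5A2 over EIF5A FPKM on a log axis. The LG libraries are highest in the left panel (2.28 to 2.77) and the DP libraries in the right panel (0.0843 to 0.126), and no 2 stages overlap in either.

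EEF1A2, the eEF1A form of skeletal muscle and neurons, was read at 0.05 to 0.26 FPKM in 6 libraries, at 5.88 in DP replicate 2 and at 0 in LG replicates 2 and 3. Of the muscle genes in the table, a list chosen after that value was seen, ACTA1, CKM, MYLPF and MYL2 were at 0.17 FPKM or less in every library, and TNNT1 was at 0.36 in DP replicate 2 and at 0 to 0.44 in the others. With EEF1A1 as the reference, the log2 ratio was 1.65 higher in DP than in LL (exact permutation test, p = 0.7), and -0.22 without DP replicate 2.

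Of the factors that select the start codon, EIF1 (gene ID 102180698, chromosome 19, 41549567 to 41552136), which keeps the scanning ribosome from starting at a wrong codon, was highest in lactation. Its scaled FPKM was 111, 173 and 141 in LL, against 32.1, 46.8 and 48.3 in DP and 27.8, 43.4 and 47.4 in LG. Every LL library lay above every DP and LG library, and DP and LG overlapped. EIF1 was called lower than in LL both in DP (log2 fold change -1.72, SE 0.26, adjusted p = 0.000451) and in LG (log2 fold change -1.83, SE 0.26, adjusted p = 0.000415), and both calls held after quantile normalization (-1.02 and -1.42). Between LG and DP the log2 fold change was -0.11 (adjusted p = 0.771).

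EIF5, the GTPase-activating factor that eIF1 opposes at the start codon, showed the same order. It was at 66.9, 80.5 and 78.9 scaled FPKM in LL, against 37.2, 35.7 and 40.4 in DP and 41.9, 30.7 and 39.3 in LG. EIF5 was called lower in LG than in LL (log2 fold change -1.01, SE 0.16, adjusted p = 0.000872) by a narrow margin, since the call was lost without DP replicate 1, DP replicate 3, LG replicate 2, LL replicate 2 or LL replicate 3 (-0.999 to -0.875) and after quantile normalization (-0.66). In DP against LL its value was -0.98 (adjusted p = 0.000822), short of the fold threshold, which it passed without DP replicate 3 or LL replicate 1 (-1.02 and -1.08). With 1 library left out this value ran from -1.08 to -0.94, and after quantile normalization it was -0.33 (adjusted p = 0.085 in limma). EIF1B, a paralogue of EIF1 at a far lower level, was at 4.62 to 6.34 in LL, against 7.39 to 13.2 in DP and 5.21 to 7.91 in LG, with a log2 fold change of 0.69 (adjusted p = 0.0215) in DP against LL. For EIF1AX, which acts with eIF1 in scanning, no adjusted p of the 3 comparisons was under 0.05 (log2 fold changes -0.0082, 0.026 and 0.034).

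Of the genes of the 3 subunits of eIF2, which delivers the initiator tRNA, EIF2S2 and EIF2S3 were called, in different comparisons, and EIF2S1 in none. EIF2S2 (beta subunit, gene ID 102177742, chromosome 13, 63062854 to 63082442) was at 52.1, 62.1 and 53.6 scaled FPKM in LL, against 14.1, 15.7 and 20.5 in DP and 21.3, 19.7 and 30.0 in LG. LL stood above both other stages without overlap, and EIF2S2 was called lower in DP (log2 fold change -1.69, SE 0.20, adjusted p = 9.76e-05) and in LG (log2 fold change -1.23, SE 0.20, adjusted p = 0.00088) than in LL, but after quantile normalization only in DP (-1.20, against -0.92 in LG). EIF2S3 (gamma subunit, gene ID 102182292, chromosome X, 45967962 to 45984248) was instead highest in LG, at 28.5, 33.1 and 27.9 in LL, against 14.9, 19.5 and 15.8 in DP and 43.3, 37.8 and 42.8 in LG, and rose between DP and LG (log2 fold change 1.26, SE 0.15, adjusted p = 0.000304). EIF2S1 (alpha subunit, the target of the eIF2 kinases) was at 16.7, 16.6 and 20.5 in LL, against 11.2, 12.6 and 18.8 in DP and 13.1, 12.4 and 25.7 in LG. Replicate 3 of DP and of LG stood above the others there, the stages overlapped, and no comparison passed, with -0.34 (adjusted p = 0.308) in DP against LL, -0.13 (adjusted p = 0.711) in LG against LL and 0.21 (adjusted p = 0.594) in LG against DP.

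EIF2A, which can deliver the initiator tRNA without eIF2, was at 16.8 to 17.8 scaled FPKM in LL, against 16.6 to 19.2 in DP and 25 to 31.6 in LG. LG was above both other stages, with log2 fold changes of 0.70 (adjusted p = 0.0024) against LL and 0.64 (adjusted p = 0.00566) against DP, under the fold threshold. EIF2D lay at 5.06 to 6.06 in all 9 libraries. The 5 genes of eIF2B, the factor that reloads eIF2 with GTP, gave 0 calls in any comparison and 0 members at an adjusted p under 0.05 in limma, with 2 results at an unadjusted p under 0.05 (EIF2B2, lower in DP against LL, and EIF2B4, higher in LG against DP, whose FPKM run 1 to 1.5 below those of the neighbouring GTF3C2). Their catalytic subunit EIF2B5 was at 11.3 to 15.6 in LL, against 9.55 to 14 in DP and 11.5 to 17.1 in LG.

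The 12 eIF3 genes, which encode the scaffold of the preinitiation complex, all had a log2 fold change above 0 in LG against DP, with a median of 0.82. Of these, 4 were called higher and 8 had an adjusted p under 0.05, against 6.37% and 18.4% of all genes tested, and all 12 stayed above 0 after quantile normalization, where 0 were called. The called genes were EIF3K (log2 fold change 1.06, SE 0.17, adjusted p = 0.00124), EIF3E (log2 fold change 1.02, SE 0.18, adjusted p = 0.00249), EIF3D (log2 fold change 1.02, SE 0.14, adjusted p = 0.000629) and EIF3F (log2 fold change 1.01, SE 0.14, adjusted p = 0.000678). EIF3K lost its call without DP replicate 1 or LG replicate 2 (down to 0.94), and EIF3D without DP replicate 3 or LG replicate 2 (0.96 and 0.97). EIF3D was named after its values were seen, and its FPKM ran 1.68 to 2.18 below those of its neighbour FOXRED2 in every library, so it is not a separate measurement. EIF3H, at 0.96, fell short of the fold threshold, which it passed without DP replicate 1, LG replicate 2 or LG replicate 3 (1.01 to 1.06).

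In scaled FPKM, EIF3E was at 72.1, 92.9 and 87.8 in LL, against 93.6, 75.2 and 73.3 in DP and 194, 142 and 159 in LG. LL and DP overlapped, and LG was above both. EIF3F was at 25.8, 31.3 and 30.2 in LL, against 18.5, 19.1 and 19.7 in DP and 35.9, 44.5 and 38.3 in LG, without overlap between stages. The calls of EIF3E and EIF3F in LG against DP lay on the fold threshold and were lost without DP replicate 2, DP replicate 3 or LG replicate 1 for EIF3E (down to 0.90) and without DP replicate 1 or LG replicate 2 for EIF3F (down to 0.92).

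Between DP and LL, all 12 eIF3 genes had a log2 fold change below 0 (median -0.55), and 0 were called. Of these, 7 had an adjusted p under 0.05 in limma (28.6% of all genes tested were lower). At an unadjusted p under 0.05, for which no share of all genes was computed, there were 8. After quantile normalization 5 of the 12 were below 0, and without scaling 9 of the 12 lay below the median of all genes. EIF3I had the lowest value (-0.91, adjusted p = 0.000705) and EIF3E the highest (-0.062, adjusted p = 0.785). In LG against LL, 9 were above 0 and 4 were higher at an adjusted p under 0.05, against 25.6% of all genes tested. EIF3E was the highest (0.96, adjusted p = 0.00225 in limma), called without LG replicate 2 or LL replicate 2 (1.06 and 1.02) and after quantile normalization (1.34). EIF3I overlaps TMEM234 on the opposite strand (4.47 to 15.2 FPKM), and reads from a stretch that both share cannot be told apart by strand, since the library kit does not mark it. How much of each gene is shared was not computed.

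**Figure D4:**
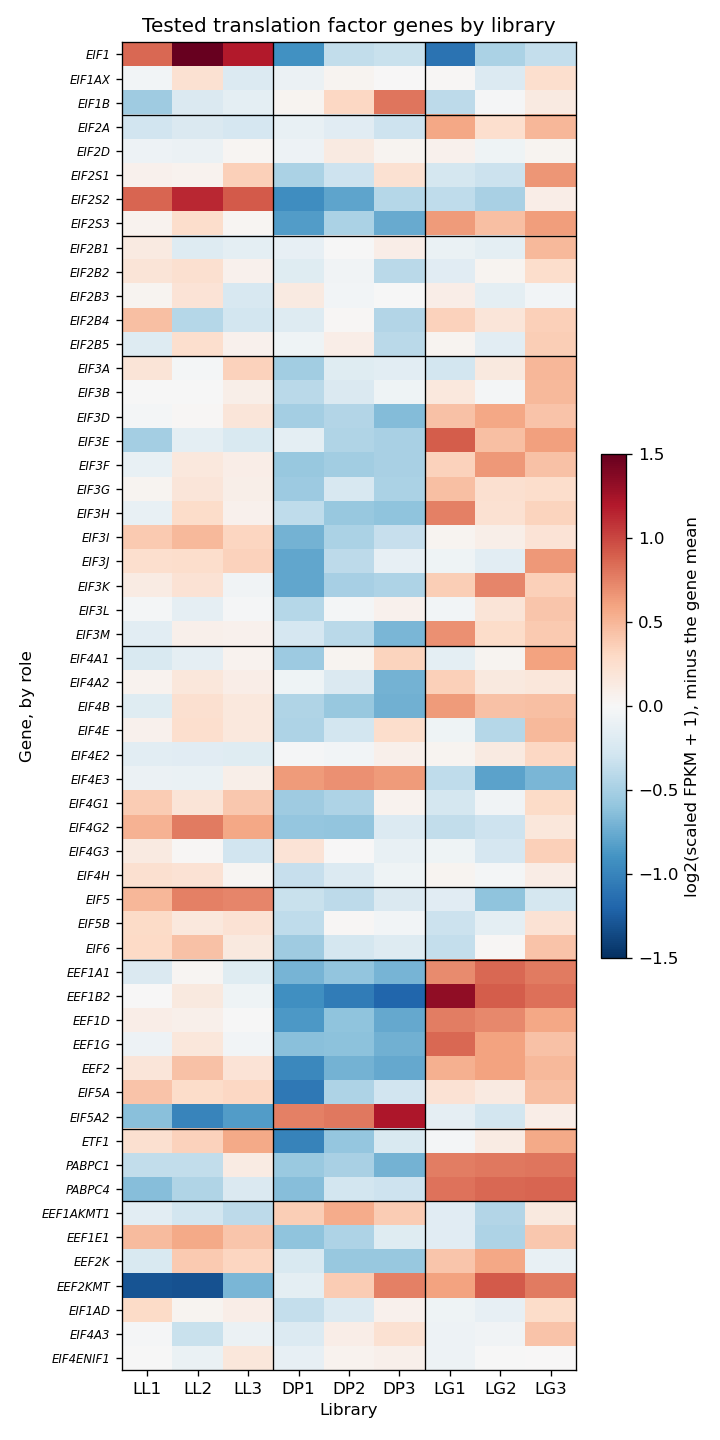
Log2(scaled FPKM + 1) minus the mean of the gene over the 9 libraries (colour, red above and blue below) for the 55 tested members in rows, ordered by role, and the libraries in columns. The elongation factor, eIF3 and poly(A)-binding protein genes are mostly blue in DP and red in LG on this scaling (EEF1A1 is at -0.18 in LG against DP after quantile normalization), EIF1, EIF2S2 and EIF5 are red in LL, and EIF5A2 and EIF4E3 are red in DP.

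In the eIF4 group, the cap-binding protein gene EIF4E was at 20.9, 24 and 22.3 scaled FPKM in LL, against 14.2, 16.4 and 24 in DP and 19.1, 14.5 and 28.4 in LG. The stages overlapped and no comparison passed, with -0.32 (adjusted p = 0.301) in DP against LL, -0.16 (adjusted p = 0.626) in LG against LL, 0.16 (adjusted p = 0.658) in LG against DP. EIF4E3, a cap-binding protein of the same family, was at 2.65, 2.64 and 3.14 in LL, against 5.03, 5.26 and 5.04 in DP and 1.99, 1.23 and 1.42 in LG, with DP above LL and LL above LG without overlap. EIF4E3 was called lower in LG than in DP (log2 fold change -1.27, SE 0.13, adjusted p = 0.000149) and remained so after quantile normalization (-1.2), and its log2 fold change was 0.68 (adjusted p = 0.00171) in DP against LL and -0.59 (adjusted p = 0.00425) in LG against LL.

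EIF4E2, the related protein that can hold mRNAs in a silent state, was at 5.0 to 5.1 in LL, against 5.6 to 6.16 in DP and 5.99 to 7.46 in LG. Its ratio to EIF4E was 0.210 to 0.244 in LL, against 0.256 to 0.405 in DP and 0.263 to 0.445 in LG. The LL libraries were below all others, with a difference in mean log2 ratio of 0.54 in DP and 0.56 in LG, and the two-sided exact permutation test gave p = 0.1 for both (adjusted p = 0.217).

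The scaffold EIF4G2, a form that lacks the eIF4E site and serves cap-independent initiation, was at 149, 179 and 156 scaled FPKM in LL, against 69.1, 68.6 and 89.6 in DP and 79.8, 83.4 and 116 in LG. LL was above both other stages without overlap, and EIF4G2 was called lower in DP than in LL (log2 fold change -1.09, SE 0.19, adjusted p = 0.00129), a value of -0.27 after quantile normalization. In LG against LL its log2 fold change was -0.80 (adjusted p = 0.00723). The classical scaffold EIF4G1 was at 53 to 61.2 in LL, against 31.5 to 47.8 in DP and 38.3 to 56.4 in LG, with -0.64 (adjusted p = 0.0221) in DP against LL, -0.34 (adjusted p = 0.194) in LG against LL and 0.31 (adjusted p = 0.269) in LG against DP. Its FPKM differed from that of its neighbour POLR2H by 0.02 in every library, so that it, too, is not a separate measurement.

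The helicases EIF4A1 and EIF4A2, which unwind the 5′ end of the mRNA, were not called in any comparison. EIF4A1 was at 120.4, 128 and 146 scaled FPKM in LL, against 96, 145 and 179 in DP and 127, 145 and 215 in LG, and EIF4A2 at 262, 285 and 272, 242, 218 and 155 and 325, 281 and 285. The highest EIF4A1 and the lowest EIF4A2 value of DP were in the same library, DP replicate 3, and the ratio of EIF4A2 to EIF4A1 was 2.52, 1.51 and 0.864 in the DP libraries, 1.86 to 2.23 in LL and 1.33 to 2.56 in LG. EIF4A2 overlaps RFC4 on the opposite strand, and here, too, reads from a stretch that both share cannot be told apart by strand. EIF4B, the cofactor of the helicase, was at 97.4, 130.3 and 124 in LL, against 80.5, 74.2 and 66.6 in DP and 172, 150.0 and 151 in LG without overlap between stages, and rose between DP and LG (log2 fold change 1.09, SE 0.17, adjusted p = 0.00107), a call that was lost after quantile normalization (0.75). The second cofactor gene, EIF4H, was at 53 to 61.2, 40.6 to 49.6 and 50.5 to 56.2 in LL, DP and LG and was not called.

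Among the poly(A)-binding proteins, PABPC1 (gene ID 102175779, chromosome 14, 18566570 to 18584122), which binds the poly(A) tail and joins it to the cap complex, was at 49.2, 48.9 and 69.1 scaled FPKM in LL, against 42.9, 45.2 and 38.6 in DP and 109, 111 and 112 in LG. LG was above both other stages without overlap, and PABPC1 rose between DP and LG (log2 fold change 1.37, SE 0.17, adjusted p = 0.000356). In LG against LL it reached 0.99 (adjusted p = 0.00117), just short of the fold threshold, and passed it without LG replicate 1 or LL replicate 3 (1.00 and 1.14) and after quantile normalization (1.31). PABPC4 was at 8.94, 10.3 and 12.3 in LL, against 8.95, 11.8 and 11.4 in DP and 26.1, 27 and 27.2 in LG, with LL and DP overlapping, and was called higher in LG than in LL (log2 fold change 1.28, SE 0.15, adjusted p = 0.000154) and in DP (log2 fold change 1.25, SE 0.15, adjusted p = 0.000343). Both PABPC4 calls held after quantile normalization (1.31 and 1.14). The ratio of PABPC4 to PABPC1 was 0.177 to 0.210 in LL, and its mean log2 value was 0.36 higher in LG without overlap (exact permutation test, two-sided, p = 0.1, adjusted p = 0.217). In DP it was 0.209 to 0.296, with a mean log2 value 0.42 higher than in LL and overlapping it (exact permutation test, p = 0.2, adjusted p = 0.371).

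ETF1, the release factor eRF1 that reads the stop codons, was at 50.4, 54 and 63.2 scaled FPKM in LL, against 20.6, 28.1 and 36 in DP and 41.5, 46.2 and 63.5 in LG. DP was below both other stages, with log2 fold changes of -0.99 (adjusted p = 0.00534) in DP against LL and 0.83 (adjusted p = 0.0205) in LG against DP, and -0.16 (adjusted p = 0.581) in LG against LL. ETF1 was called in DP against LL without DP replicate 2, DP replicate 3, LL replicate 1 or LL replicate 2, and in LG against DP without DP replicate 3. With 1 library left out its values ran from -1.17 to -0.78 in DP against LL and from 0.63 to 1.02 in LG against DP. After quantile normalization they were -0.43 (adjusted p = 0.12 in limma) and 0.62 (adjusted p = 0.054). EIF6, which keeps free large subunits from joining too early, was at 34.1 to 42.1 in LL, against 20.9 to 26.8 in DP and 23.8 to 41.6 in LG, with -0.62 (adjusted p = 0.0267), -0.27 (adjusted p = 0.309) and 0.36 (adjusted p = 0.203) for DP against LL, LG against LL and LG against DP, respectively. EIF5B, the subunit joining GTPase, stayed between 2.04 and 3.84 in all 9 libraries.

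Of the enzymes that modify elongation factors, EEF2K, the kinase that inactivates eEF2, was at 25.8, 40.1 and 38.3 scaled FPKM in LL, against 25.7, 20.2 and 20.1 in DP and 41, 46.1 and 28 in LG. DP lay below LL and LG, but DP replicate 1 (25.7) only just below LL replicate 1 (25.8). The log2 fold changes were -0.62 (adjusted p = 0.0429) in DP against LL, 0.76 (adjusted p = 0.0301) in LG against DP and 0.14 (adjusted p = 0.648) in LG against LL. After quantile normalization the first 2 were -0.19 (adjusted p = 0.55 in limma) and 0.55 (adjusted p = 0.127). The kinase was not called in any comparison. EEF2KMT, a methyltransferase of eEF2, was at 0.342, 0.325 and 1.04 in LL, against 1.97, 3.25 and 4.52 in DP and 3.97, 5.19 and 4.63 in LG, and was called higher than in LL both in DP (log2 fold change 1.42, SE 0.24, adjusted p = 0.000934) and in LG (log2 fold change 1.86, SE 0.24, adjusted p = 0.000248). After quantile normalization the first of these was 0.93, under the fold threshold, and with a pseudocount of 0.1 it was 2.41. The FPKM of EEF2KMT in LL were only 0.17, 0.18 and 0.63, so that it passed the filter through the DP and LG libraries. EEF2KMT overlaps ALG1, which lies on the opposite strand at 2.49 to 10.6 FPKM, and reads from a stretch that both share cannot be told apart by strand. EEF1AKMT1, a methyltransferase of eEF1A, was at 2.3 to 2.85 in LL, against 4.55 to 5.33 in DP and 2.19 to 3.77 in LG, with DP above both, at 0.71 (adjusted p = 0.00355) in DP against LL and -0.59 (adjusted p = 0.0151) in LG against DP. It overlaps IL17D, read on the opposite strand at 0.05 to 6.05 FPKM, and the same limit holds.

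Of the members, 10 were listed as having mRNAs that begin with a TOP tract, namely EEF1A1, EEF1B2, EEF1D, EEF1G, EEF2, EIF3E, EIF3F, EIF3H, EIF4B and PABPC1. The tract was not read from goat sequence, and members outside the list may carry one. EEF1D and EEF1G follow neighbouring genes and are not separate measurements. In LG against DP all 10 had a log2 fold change above 0 and 9 were called higher, against 6.37% of all genes tested, whereas after quantile normalization 9 were above 0 (EEF1A1 was not) and 3 were called. Their values ran from 0.96 (EIF3H) to 2.08 (EEF1B2), with a median of 1.32. Among the 45 tested members outside the list, 4 were called higher and 2 lower, with a median of 0.29. In DP against LL the TOP members had a median of -0.62 with 2 called lower, against 8.79% of all genes tested. In LG against LL they had a median of 0.63 with 0 called in limma. There 7 were higher at an adjusted p under 0.05, against 25.6% of all genes. At an unadjusted p under 0.05, for which no share of all genes was computed, 8 were higher. After quantile normalization the DP against LL median was 0.096 with 1 called higher, and the LG against LL median was 1.02 with 6 called higher. Without scaling all 10 were called higher in LG against LL, where their median lay 0.87 above that of all genes, which was itself 0.93. The share of all genes called was not computed after quantile normalization or without scaling.

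The 79 tested ribosomal protein genes, the largest group of TOP mRNAs, had medians of -0.76, 0.45 and 1.25 in DP against LL, LG against LL and LG against DP. In LG against DP all 79 were above 0 and 62 were called higher, a direction in which 6.37% of all genes were called. After quantile normalization 65 were above 0 with a median of 0.30, and only 3 were called higher. With that normalization the median in DP against LL was 0.23, and the share of all genes called was not computed. The TOP members and the ribosomal protein genes come from the same libraries, so that 1 list is no separate support for the other.

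The 23 genes for eIF2 kinases, eIF4E-binding proteins and other regulators, listed by role, gave 0 called higher and 4 lower in DP against LL (all genes 13.8% and 8.79%), 1 higher and 1 lower in LG against LL (10.7% and 6.61%), and 2 higher and 0 lower in LG against DP (6.37% and 6.88%). At an unadjusted p under 0.05 in limma, 11 regulators had a lower and 4 a higher value in DP than in LL, and 7 a higher and 3 a lower value in LG than in DP. No share of all genes was computed at that cutoff. By adjusted p, 10 were lower and 2 higher in DP than in LL, against 28.6% and 28.2% of all genes. In LG against DP, 6 were higher and 3 lower by adjusted p, against 18.4% and 16.4% of all genes. MKNK2, a kinase that phosphorylates eIF4E, had the largest difference, at 105, 299.6 and 307 scaled FPKM in LL, against 10.5, 12.7 and 13.3 in DP and 6.98, 12.3 and 7.2 in LG. Every LL library was far above every DP and LG library, and MKNK2 was called lower in DP (log2 fold change -4.03, SE 0.39, adjusted p = 3.26e-05) and in LG (log2 fold change -4.49, SE 0.39, adjusted p = 2.62e-05) than in LL, under quantile normalization as well (-3.49 and -4.09). Its relative MKNK1 lay at 1.88 to 4.09 in all 9 libraries.

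EIF4EBP1, the inhibitor that sequesters eIF4E until mTOR phosphorylates it, was at 92, 83.9 and 114 scaled FPKM in LL, against 30.1, 55.1 and 31.4 in DP and 118, 139 and 187 in LG. It was called lower in DP than in LL (log2 fold change -1.33, SE 0.26, adjusted p = 0.00227), a value of -0.67 after quantile normalization, and higher in LG than in DP (log2 fold change 1.93, SE 0.26, adjusted p = 0.000601). Its FPKM ran 1.66 to 2.16 above those of the neighbouring ASH2L in every library, so the value belongs to the pair and not to EIF4EBP1 alone. PPP1R15B, the constitutive partner of the phosphatase that restores eIF2, was called lower in DP than in LL (log2 fold change -1.21, SE 0.22, adjusted p = 0.00151), as was PAIP2B, an inhibitor of the poly(A)-binding proteins (log2 fold change -1.05, SE 0.18, adjusted p = 0.000971), whose call was lost without DP replicate 3 or LL replicate 3 (-0.89 and -0.96). After quantile normalization PAIP2B kept its call (-1.17) and PPP1R15B did not (-0.94).

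PDCD4, which blocks the eIF4A helicase, was at 33.8, 36.2 and 44.2 scaled FPKM in LL, against 51.6, 53 and 87.3 in DP and 124, 70.7 and 69.1 in LG, and was called higher in LG than in LL (log2 fold change 1.14, SE 0.28, adjusted p = 0.00737), but not without LG replicate 1 (0.87). DENR, which with MCTS1 recycles ribosomes and restarts them downstream of short reading frames, was at 8.18 to 9.51 in LL, against 4.89 to 6.54 in DP and 11.7 to 17.5 in LG, and was called higher in LG than in DP (log2 fold change 1.17, SE 0.17, adjusted p = 0.000787), but fell just under the fold threshold without LG replicate 3 (0.99). None of the 4 eIF2 kinases (EIF2AK1 to EIF2AK4) was called in any comparison.

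Libraries of a stage also differed from each other. Of the 55 tested members, LG replicate 3 held the highest scaled value of its stage for 33, DP replicate 3 for 28 and LL replicate 2 for 27. The members of LG replicate 3 lay at a median of 1.07 times the mean of their stage, those of LG replicate 2 at 0.916. Among the elongation factors of LG, EEF1A1 and EEF2 were highest in LG replicate 2 and EEF1B2, EEF1D and EEF1G in LG replicate 1.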

How the data were processed

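Poly(A) RNA of mammary tissue from 9 goats (3 in each of LL, DP and LG) was prepared by the authors with a TruSeq RNA kit, which does not mark strand, and read on an Illumina instrument. The submitters' processing notes name FastQC, Trimmomatic, HISAT2, SAMtools and HTSeq, and the study names its goat reference genome by the record of the sequenced animal, with no build name. The table the authors deposited holds 1 value per gene and library, names no unit, and was read as FPKM because its values carry decimals and sum to different totals. All 9 columns were used. FPKM keep no read counts, so no count test and no counting error could be given.

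Each library was divided by a median-ratio factor, computed from 15905 genes above 0 in every library, and log2 was taken after adding 1. Genes reaching 0.5 FPKM in 3 or more libraries (14701) were tested in limma 3.58.1 (R 4.3.3), with empirical Bayes moderation and a trend of variance on mean level (lmFit, contrasts.fit, eBayes). A single fit held the 9 libraries, without covariates. Adjusted p-values of single genes come from this limma fit, with the Benjamini-Hochberg method over all genes tested. For ratios within a library and for sums, Python 3.11.15 (numpy 2.4.6, pandas 2.3.3 and scipy 1.17.1) gave values and two-sided exact permutation tests. Each library is from a different goat.

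The members, the TOP list, the regulators and the marker lists were chosen with earlier results of these data known. Named with values were 24 members fixed by role, every called member up to the 8 largest changes in each direction, called regulators, and in a role the members with the highest and lowest change; EIF3D, EIF1AX and EIF5 in some comparisons, the ranges of further members, and the ratio of elongation to initiation sums were added after the values were seen. A member was taken as linked where its FPKM differed from that of 1 of 8 neighbours on either side by a constant, or by a constant plus or minus the amounts seen between BAX and FTL, within 0.03 FPKM in every library. This held for 5 members and 3 regulators. Of the members, 8 overlap another gene of the table. All 57 gene IDs are found in RefSeq's table for ARS1.2, used only for names, and positions are those of the deposited table. In a simulation of 14701 genes that changed 200 between LG and DP, 180 of these and 3 unchanged genes were called. Its values were drawn after scaling, so it cannot show how the scaling affects the calls. The changes were all set above the fold threshold and in genes above a set mean level. It therefore does not cover weakly expressed genes or changes near the threshold. Alternatives were no scaling, quantile normalization, a pseudocount of 0.1, 2 other filters, only the 2 stages compared, no trend, a replicate block, each library left out and, added after the values were seen, linked genes left out.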

Additional observations from a re-analysis of the deposited data

How the results depend on the processing

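The counts of members called were 7 (DP against LL), 5 (LG against LL) and 15 (LG against DP), and were the same with no filter, with a filter at 2 FPKM, without the mean-variance trend and with only the 2 stages compared. In the same order they were 9, 7 and 15 with a pseudocount of 0.1, 24, 36 and 10 without scaling, 4, 9 and 7 after quantile normalization, 30, 21 and 25 by adjusted p alone, 7, 5 and 12 without linked genes, and 7 to 11, 5 to 6 and 12 to 16 with 1 library left out. With the replicate block the counts were 7, 5 and 15 and no call of a named gene changed; the replicate numbers are those of separate goats and do not pair them (correlations of deviations -0.106 to 0.201 for equal numbers). The member medians were 0.92, 1.12 and 0.19 without scaling and 0.030, 0.26 and 0.20 after quantile normalization, and with 1 library left out they ran from -0.46 to -0.38, 0.047 to 0.19 and 0.22 to 0.47. By construction, values without scaling carry the shift of all genes, and the cause of the other changes was not tested. The shares of all genes called are those of the fit with median-ratio scaling, and none was computed for the alternatives. Without scaling, these log2 fold changes had the other sign: for LG against DP EIF1AX (-0.19), EIF2B5 (-0.010), EIF2S1 (-0.011), EIF4A1 (-0.014) and EIF4E (-0.065), for LG against LL EIF2S1 (0.97), EIF4E (0.96), EIF4E3 (0.19), EIF4G1 (0.82), EIF4G2 (0.37), EIF5 (0.15), EIF5A (1.09), EIF6 (0.88) and ETF1 (0.99), for DP against LL EEF1A1 (0.87), EEF1B2 (0.33), EEF1D (0.60), EEF1G (0.74), EEF2 (0.32), EEF2K (0.74), EIF1AX (1.29), EIF2B5 (1.13), EIF2S1 (0.98), EIF3E (1.33), EIF3F (0.78), EIF3H (0.79), EIF3I (0.47), EIF4A2 (0.97), EIF4B (0.75), EIF4E (1.02), EIF4EBP1 (0.058), EIF4G1 (0.74), EIF4G2 (0.32), EIF5 (0.41), EIF5A (0.44), EIF6 (0.74), ETF1 (0.39), PABPC1 (1.01), PAIP2B (0.0057) and PPP1R15B (0.12). After quantile normalization the sign turned for LG against DP EEF1A1 (-0.18), EIF1AX (-0.14), EIF4A1 (-0.11) and EIF4E (-0.051), for LG against LL EIF4G1 (0.012), EIF5A (0.29) and ETF1 (0.19), for DP against LL EEF1A1 (2.83), EEF1D (0.023), EEF1G (0.22), EIF1AX (0.20), EIF2B5 (0.049), EIF3E (0.71), EIF3H (0.036), EIF4A2 (0.41), EIF4B (0.16), EIF4E (0.034) and PABPC1 (0.25). With 1 library left out, values of uncalled genes crossed 0 for LG against DP EIF4A1 (-0.023 to 0.42), EIF1 (-0.29 to 0.12), EIF1AX (-0.085 to 0.14), EIF2S1 (-0.11 to 0.42) and EIF4E (-0.089 to 0.37), for LG against LL EIF2S1 (-0.45 to 0.042), EEF2K (-0.069 to 0.34), EIF4E (-0.40 to 0.058), EIF1AX (-0.090 to 0.14) and EIF2B5 (-0.10 to 0.16), for DP against LL EIF1AX (-0.12 to 0.090), EIF4A1 (-0.15 to 0.30), PABPC4 (-0.083 to 0.15) and EIF3E (-0.19 to 0.0031). Among the log2 ratios, EEF1A2 to EEF1A1 ran from -0.22 to 3.16 (DP against LL), EIF4A2 to EIF4A1 from -0.38 to 0.099 (LG against LL) and -0.056 to 0.72 (LG against DP), and, both in LG against DP, EIF4E2 to EIF4E from -0.19 to 0.18 and PABPC4 to PABPC1 from -0.20 to 0.053, while EIF5A2 to EIF5A kept its sign in each fit. FPKM without read counts limit what can be said of genes under 1 FPKM, such as EIF5A2 and EEF2KMT in LL.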
